A study of Mus musculus with 4 samples.

Results

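The 10 genes described here encode the enzymes that make prostaglandins and the enzyme that first inactivates them, and they were chosen by name from the 55421 genes counted in each library. They are the cyclooxygenases Ptgs1 and Ptgs2, the prostaglandin E synthases Ptges, Ptges2 and Ptges3, the prostaglandin D synthases Ptgds and Hpgds, the prostacyclin synthase Ptgis, the aldo-keto reductase Akr1b3 and the dehydrogenase Hpgd. RNA was isolated from milligram amounts of frozen uterine tissue, not from the entire organ. The tissue was collected on E18.5 of pregnancy from 2 WT animals (strain C57BL/6J) and 2 Qa-2- animals (strain B6.Cg-H2b3/FlaCmwJ, also called B6.K1). Each animal gave 1 library, and the paper does not state which part of the uterus was used. B6.K1 carries a naturally arisen H2 haplotype without the Qa-2 genes on a C57BL/6 background, so that the groups are different inbred stocks, obtained from different suppliers, rather than littermates that differ in 1 engineered allele. The matings were syngeneic, and fetuses therefore had the genotype of the mother.

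Prostaglandins are short-lived lipids that are made from arachidonic acid by nearly every tissue. Phospholipases free arachidonic acid from membranes, a cyclooxygenase turns it into the unstable intermediate PGH2, and a terminal synthase then forms prostaglandin E, D or F, prostacyclin or thromboxane. In the mouse, uterine prostaglandin F ends the life of the corpus luteum before birth, the fall of progesterone that follows permits labour, and E and F prostaglandins act on the myometrium. Hpgd, after uptake of prostaglandins into the cell, oxidises them to products with little activity, so the level in tissue depends on synthesis and breakdown together.

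The total count per library was between 33286390 and 41041299 read pairs, and both WT libraries were deeper than both Qa-2- libraries. The genes H2-Q6 and H2-Q7, which encode Qa-2, had between 1192 and 6318 counts in the WT libraries and between 2 and 4 counts in the Qa-2- libraries, in the direction the labels give. Markers of uterine tissue (Hoxa10, Hoxa11, Esr1, Pgr and Hand2) were present in every library, between 33.96 and 402.8 CPM, the counts scaled to a common library size. The libraries differed in other tissue as well. Summed over 7 trophoblast markers, WT replicate 2 had 20.05 CPM against 0.17 to 3.55 CPM in the other libraries, with Gcm1 and Ctsq at 0 in every library. Summed over 6 yolk sac markers, Qa-2- replicate 1 had 493.6 CPM against 8.42 to 45.4 CPM in the others. The part of the sampled piece of tissue in these differences was not tested.

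All 10 genes passed the expression filter (1 CPM or more in 2 or more libraries), which kept 14492 genes. Counts were compared between genotypes with the quasi-likelihood test of edgeR, and p was adjusted by Benjamini and Hochberg's method over all genes kept. At an adjusted p under 0.05 it called 0 of the 10 enzymes, and 0% of all genes. The smallest edgeR adjusted p of any gene was 0.170. H2-Q6 and H2-Q7, nearly absent from the Qa-2- libraries, had 0.228 each, so even a difference of that size was not called. DESeq2 likewise called 0 of the 10 enzymes, beside 4.83% of all genes (2.79% higher and 2.04% lower in WT). At an unadjusted p under 0.05 in edgeR, 3 of the 10 genes passed, beside 15.2% of all genes tested. These were Hpgd and Ptgs2 with more mRNA in WT uteri (2 genes, beside 8.09% of all genes in that direction) and Hpgds with less (1 gene, beside 7.09%). For 1 gene alone, an exact permutation test of 2 against 2 mice cannot give a two-sided p below 0.33. In 6 of the 10 genes the groups did not overlap, with 5 above in WT (Ptgs2, Ptges3, Ptgis, Hpgd and Akr1b3) and 1 below (Hpgds), where 50.0% of all genes had this order (25.4% above and 24.5% below). On library totals alone 5 of the 10 genes did not overlap (4 above and 1 below), beside 50.7% of all genes. In TPM the tally was 3 above (Ptgs2, Ptges3 and Hpgd) and 2 below (Hpgds and Akr1b3), so it depended on the scale for Ptgis and Akr1b3. Fold changes are given as WT relative to Qa-2- throughout, and a positive log2 value means more mRNA in WT. Their median was 0.29 (log2) over the 10 enzymes and 0.01 over all genes kept. Without WT replicate 1 the median over the 10 genes was -0.04, and without Qa-2- replicate 1 it was 0.45.

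**Figure D1:**
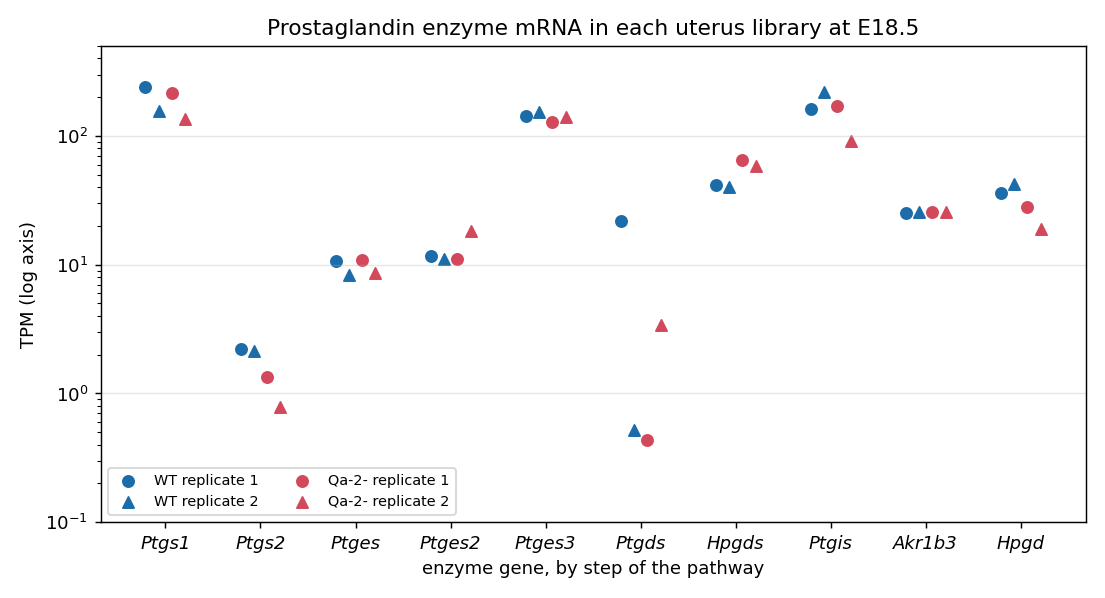
TPM (length-scaled counts, log axis) of the 10 enzyme genes in each library, ordered by step of the pathway, with WT in blue, Qa-2- in red, circles for replicate 1 and triangles for replicate 2. Ptgs1, Ptges3 and Ptgis lie near the top in every library, Ptgs2 lies between 0.78 and 2.21 TPM, and Ptgds spreads from 0.44 to 21.9 TPM.

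Levels of different genes were compared as TPM, in which each count is divided by the exonic length of the gene before the library is scaled to a fixed total. The 3 most abundant enzymes were Ptgs1, with 136.1 to 238.5 TPM over the 4 libraries, Ptgis with 90.8 to 217.5 TPM and Ptges3 with 129.1 to 152.2 TPM, and their ranges overlap. Hpgds followed with 40.3 to 65.5 TPM, then Hpgd with 19.0 to 42.7 TPM and Akr1b3 with 25.3 to 25.8 TPM, again with overlap between neighbours. Ptges2 had 11.04 to 18.2 TPM and Ptges 8.36 to 10.9 TPM. Ptgds and Ptgs2 had the lowest means, 6.57 and 1.62 TPM. Ptgs1 took between 23.7% and 34.5% of the summed TPM of the 10 genes in a library, and Ptgs2 between 0.156% and 0.327%. The sum itself was 690.8 and 656.0 TPM in WT replicates 1 and 2, and 659.9 and 500.9 TPM in Qa-2- replicates 1 and 2.

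The cyclooxygenases carry out the committed step. Ptgs1, the constitutive form, whose loss in mice delays labour, lies on chromosome 2 of GRCm38 from 36230426 to 36252272 (ENSMUSG00000047250). Ptgs2, the form induced by growth factors, cytokines and tissue injury, lies on chromosome 1 from 150100031 to 150108227 (ENSMUSG00000032487). Hpgd, the dehydrogenase that opposes them, lies on chromosome 8 from 56294585 to 56321043 (ENSMUSG00000031613). The 250 bases before the RefSeq start of these 3 genes are shown, because their levels are set against each other in the ratios that follow. The bases are written 5′ to 3′ on the strand of the gene (plus strand for each, GRCm38.p6, RefSeq), at chr2:36230176-36230425, chr1:150099781-150100030 and chr8:56294302-56294551, and capitals mark the motif matches described after them.
Ptgs1: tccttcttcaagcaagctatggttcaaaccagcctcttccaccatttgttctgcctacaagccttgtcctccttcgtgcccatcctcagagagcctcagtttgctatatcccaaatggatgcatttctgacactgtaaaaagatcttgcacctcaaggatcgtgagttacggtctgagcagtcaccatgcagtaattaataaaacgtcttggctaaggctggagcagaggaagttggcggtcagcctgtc
Ptgs2: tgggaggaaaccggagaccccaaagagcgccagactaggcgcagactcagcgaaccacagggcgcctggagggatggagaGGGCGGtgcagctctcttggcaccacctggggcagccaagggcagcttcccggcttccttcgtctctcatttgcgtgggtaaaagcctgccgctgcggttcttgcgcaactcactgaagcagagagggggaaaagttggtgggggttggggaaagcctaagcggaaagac
Hpgd: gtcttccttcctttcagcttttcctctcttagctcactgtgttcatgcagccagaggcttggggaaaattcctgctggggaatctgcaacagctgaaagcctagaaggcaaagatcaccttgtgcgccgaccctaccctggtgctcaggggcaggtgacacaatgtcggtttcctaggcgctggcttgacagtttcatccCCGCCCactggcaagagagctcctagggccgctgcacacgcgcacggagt
Each window was searched on both strands for the TATA box (TATAAA), the CCAAT box (CCAAT), the GC box (GGGCGG), an E-box (CACGTG), the cyclic AMP response element (TGACGTCA), the AP-1 site (TGANTCA) and the palindromic oestrogen response element (GGTCA and TGACC with 3 free bases between them). The Ptgs1 window held none of them. The Ptgs2 window held 1 GC box and the Hpgd window 1 GC box on the other strand, and 32.7% of 32851 RefSeq windows of this length held a GC box. A TATA box in these letters was found in 12.4% of all windows, a CCAAT box in 33.8%, an E-box in 6.02%, an AP-1 site in 6.75%, the cyclic AMP response element in 1.55% and the oestrogen response element in 0.0639%. The GC content was 48.0% for Ptgs1, 61.6% for Ptgs2 and 56.8% for Hpgd, beside a median of 52.4% over all windows. Only 1 RefSeq start was used for each gene, so elements near any other start of Ptgs2 or of the other 2 genes lie outside these windows. The start used for Ptgs2 may lie upstream of the one commonly used, so its lack of other matches holds for this window only.

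Ptgs1 had 339.1 and 205.5 CPM in WT replicates 1 and 2, and 264.1 and 172.8 CPM in Qa-2- replicates 1 and 2. In each group replicate 1 was the higher library, by 1.65 times in WT and 1.53 times in Qa-2-, and the groups overlap. The WT libraries averaged 272.3 ± 94.5 CPM and the Qa-2- libraries 218.4 ± 64.5 CPM (SD, n = 2 in each). Its log2 fold change was 0.32 (standard error, SE, 0.34, with edgeR adjusted p = 0.684), and the 95% interval ran from -0.56 to 1.19. Without WT replicate 1 the log2 fold change was -0.11, so its sign rested on that library.

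Ptgs2 had 149 and 126 counts in the WT libraries but 68 and 41 counts in Qa-2- replicates 1 and 2. Scaled to library size this was 3.71 and 3.34 CPM in WT and 1.92 and 1.17 CPM in Qa-2- uteri, with both WT libraries above both Qa-2- libraries. Counting error alone gives exact binomial 95% intervals of 2.66 to 3.81 CPM of the library total for the lower WT library and 1.51 to 2.47 CPM for the higher Qa-2- library, and these do not overlap. The WT libraries averaged 3.53 ± 0.262 CPM and the Qa-2- libraries 1.54 ± 0.526 CPM (SD, n = 2 in each). The difference was 2.28-fold on the fitted scale, a log2 fold change of 1.19 (SE 0.39, unadjusted p = 0.0270 and adjusted p = 0.294 by edgeR). It lay between 0.88 and 1.59 with each library left out, on the side of WT each time. Ptgs2 is an immediate early gene, and a list of 9 other immediate early and stress genes (Fos and Egr1 among them) had a median log2 fold change of 0.28. Summed, these 9 genes had 747.4 and 1014 CPM in WT and 852.5 and 762.5 CPM in Qa-2- uteri, so that this list overlapped between the groups.

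Hpgd had 22.0 and 24.4 CPM in WT replicates 1 and 2 against 14.9 and 10.5 CPM in Qa-2- replicates 1 and 2. Both WT libraries were above both Qa-2- libraries, with less spread within a group than between the groups. The WT libraries averaged 23.2 ± 1.68 CPM and the Qa-2- libraries 12.7 ± 3.12 CPM (SD, n = 2 in each), a 1.83-fold difference on the fitted scale. Its log2 fold change was 0.87 (SE 0.23, 95% interval 0.28 to 1.47), with an edgeR p of 0.0123 and an adjusted p of 0.271, the lowest among the 10 enzymes. DESeq2 gave an adjusted p of 0.0717. With each library left out the log2 fold change lay between 0.64 and 1.15. The dehydrogenase that breaks prostaglandins down and the inducible cyclooxygenase that starts their synthesis were thus both on the WT side in every pair of libraries, although neither difference passed the adjusted threshold.

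These were whole-tissue libraries, in which fewer cells of a type and less RNA per cell cannot be told apart. Markers of several other cell types lay in the same direction as Ptgs2 and Hpgd. Each of 7 endothelial markers was above Qa-2- in both WT libraries (median 0.86 in log2), and their sum was 1176 and 1041 CPM in WT against 538.3 and 505.8 CPM in Qa-2- uteri. The 6 macrophage markers had a sum of 735.1 and 1095 CPM in WT against 691.9 and 486.9 CPM in Qa-2- uteri. Of the 6, 4 were higher in both WT libraries, where 25.4% of all genes had this order, and Csf1r and Mrc1 overlapped. In TPM, Adgre1 overlapped as well. Of the 6 decidual markers, Prl3c1 was at 0 in every library, and the sum was 4069 and 3004 CPM in WT against 2123 and 1446 CPM. Of the 5 decidual markers that passed the filter, 2 were higher in both WT libraries and 3 overlapped. Dcn, a matrix gene of stroma in general, made most of this sum, with 3495 and 2772 CPM in WT against 1887 and 1287 CPM. No marker was at 0 throughout in the endothelial or macrophage list. The smooth muscle sum (28641 and 47817 CPM in WT against 25981 and 13991 CPM) and the mesothelial sum (131.2 and 138.6 CPM against 104.3 and 58.3 CPM) were also higher in both WT libraries. The smooth muscle, mesothelial and macrophage sums each put the 4 libraries in the same order as Hpgd. Of the 6 mesothelial markers 5 were above Qa-2- in each WT library, with a median of 3.33 in log2, and Wt1, which overlapped between the groups, made the largest part of the sum. The uterine epithelial sum lay the other way, with 3665 and 2199 CPM in WT and 4541 and 4654 CPM in Qa-2- uteri. The part of these lists in the values of Ptgs2 and Hpgd was not tested.

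Ratios within a library need no scaling between libraries. Per kilobase, Ptgs1 was 107.7 and 72.5 times as abundant as Ptgs2 in WT replicates 1 and 2, and 162.5 and 173.8 times in Qa-2- replicates 1 and 2. The share of the inducible form was therefore lower in both Qa-2- libraries. The log2 ratio of Ptgs2 to Ptgs1 was -6.47 ± 0.40 in WT (SD, n = 2) and -7.39 ± 0.07 in Qa-2- uteri (SD, n = 2), a difference of 0.93 (two-sided exact permutation test, p = 0.33, the smallest the test can give, and 0.44 adjusted over the 4 ratios compared). The ratio of Ptgs1 to Hpgd, the main cyclooxygenase over the breakdown enzyme, was 6.66 and 3.65 in WT and 7.69 and 7.16 in Qa-2- uteri. Both Qa-2- libraries lay above both WT libraries, with a difference of -0.59 in log2 (WT minus Qa-2-) and the same exact p of 0.33. WT replicate 1 was close to the Qa-2- libraries in this ratio, and the difference was -0.15 without WT replicate 2 and -1.02 without WT replicate 1. The ratio of Ptgs2 to Hpgd was 0.0619 and 0.0503 in WT and 0.0473 and 0.0412 in Qa-2- uteri, a log2 difference of 0.34 with an exact p of 0.33 and little room between the groups.

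**Figure D2:**
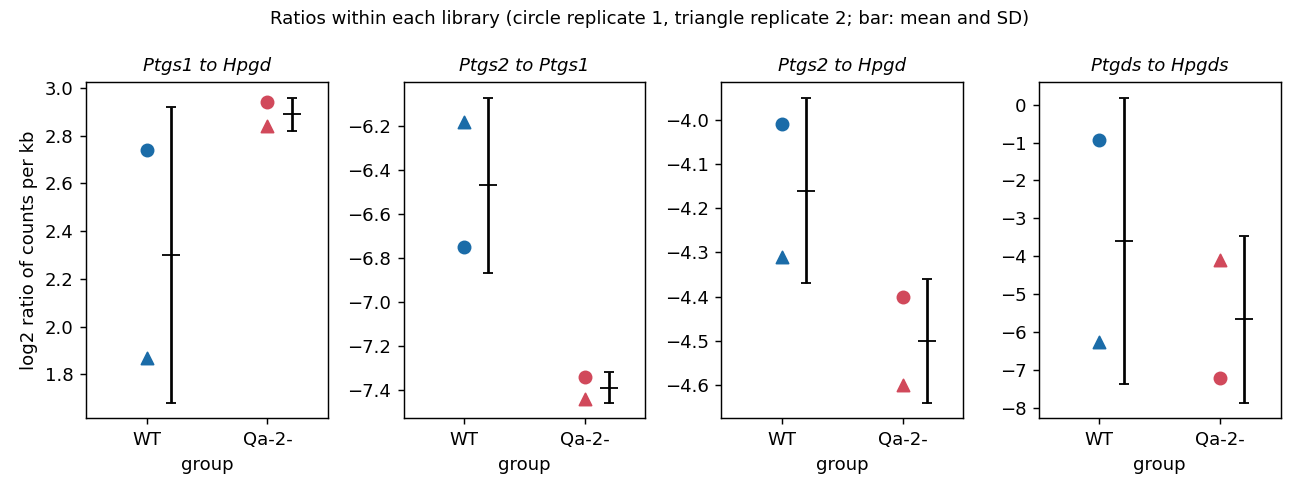
Log2 ratios of counts per kilobase within each library for 4 pairs of enzyme genes, with WT in blue, Qa-2- in red, circles for replicate 1, triangles for replicate 2, and a bar for the mean and SD of each group (each panel has its own scale). The groups do not overlap for Ptgs1 to Hpgd, Ptgs2 to Ptgs1 and Ptgs2 to Hpgd, and they overlap for Ptgds to Hpgds.

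Among the terminal synthases, the 3 that form prostaglandin E each had a 95% interval of the log2 fold change that included 0. Ptges, the membrane-bound inducible form (chromosome 2, 30889471 to 30929863), had 15.2 and 11.2 CPM in WT and 13.5 and 11.1 CPM in Qa-2- uteri. The groups overlap, and the log2 fold change was 0.10 (SE 0.25, 95% interval -0.53 to 0.73). Its sign rested on single libraries, since it was -0.17 without WT replicate 1 and -0.03 without Qa-2- replicate 2. Ptges2, the second membrane-associated form (chromosome 2, 32395896 to 32405772), had 21.7 and 19.0 CPM in WT and 17.7 and 30.1 CPM in Qa-2- uteri. Here Qa-2- replicate 2 stood above the other 3 libraries. The log2 fold change was -0.23 (SE 0.29, 95% interval -0.97 to 0.50), and without Qa-2- replicate 2 it was 0.20.

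Ptges3, the cytosolic form, is better known as p23, a co-chaperone of Hsp90 (chromosome 10, 128058954 to 128077272). It had 115.7 and 114.7 CPM in WT and 89.7 and 101.3 CPM in Qa-2- uteri, with both WT libraries above both Qa-2- libraries. The difference was small, at a log2 fold change of 0.27 (SE 0.16, 95% interval -0.14 to 0.68, edgeR adjusted p = 0.463). A processed copy, Ptges3-ps, had between 184 and 291 counts per library against 3184 to 4644 counts for Ptges3, and pairs that fitted both were not counted, so the division between them is uncertain.

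Both prostaglandin D synthases were detected. Hpgds, the glutathione-dependent form known from mast cells and macrophages (ENSMUSG00000029919, chromosome 6, 65117293 to 65144908), had 97.3 and 88.0 CPM in WT against 132.0 and 122.7 CPM in Qa-2- uteri. The libraries within a group were close to each other, and both Qa-2- libraries lay above both WT libraries. The WT libraries averaged 92.6 ± 6.58 CPM and the Qa-2- libraries 127.3 ± 6.55 CPM (SD, n = 2 in each). This was a log2 fold change of -0.46 (SE 0.16, unadjusted p = 0.0348 and adjusted p = 0.308 by edgeR), or 1.37-fold more in Qa-2- uteri. It lay between -0.56 and -0.39 with each library left out, the narrowest range of the 3 genes with an unadjusted p under 0.05. Hpgds was the only one of the 10 genes above WT in both Qa-2- libraries on the CPM scale.

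Markers of the cells known for Hpgds were read beside it. Summed over 7 mast cell markers, the libraries had 60.4 and 85.7 CPM in WT and 91.4 and 73.4 CPM in Qa-2- uteri, so the groups overlap, and Cpa3, Cma1, Mcpt4 and Tpsb2 were above 10 CPM in each library. Of the 6 mast cell markers that passed the filter, 5 had a negative log2 fold change, as Hpgds had (median of the 6, -0.20), and 1 was lower in both WT libraries. Ms4a2, below the filter, was also lower in both WT libraries. The macrophage markers, given above, were summed higher in both WT libraries. Of the 10 uterine epithelial markers, whose sum was higher in both Qa-2- libraries, 7 were lower in both WT libraries, beside 24.5% of all genes. The median log2 fold change of the 10 was -0.79. No marker of these lists was at 0 throughout, and their part in the value of Hpgds was not tested.

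Ptgds, the lipocalin-type synthase that is also a secreted carrier protein (ENSMUSG00000015090, chromosome 2, 25466709 to 25470046), varied most between mice. WT replicate 1 had 531 counts and WT replicate 2 had 11 counts, while Qa-2- replicates 1 and 2 had 8 and 64 counts. WT replicate 1 was thus 45.4 times WT replicate 2 after scaling, and Qa-2- replicate 2 was 8.12 times Qa-2- replicate 1. The exact binomial 95% interval was 11.9 to 14.1 CPM of the library total for WT replicate 1 and 0.139 to 0.4995 CPM for WT replicate 2. These intervals cover counting error only, not the spread between mice. The log2 fold change of 2.72 had a standard error of 1.71 (edgeR adjusted p = 0.484), and it was -1.83 without WT replicate 1, so the data give no direction by genotype. With the replicate block, in which replicate number is a term of the fit, it was 1.58. The ratio of Ptgds to Hpgds, per kilobase, was 0.530 in WT replicate 1 and 0.0129 in WT replicate 2, against 0.00665 and 0.0581 in Qa-2- uteri. The difference of 2.07 in log2 had an exact permutation p of 0.67, and it was -0.61 without WT replicate 1.

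Of the 6 genes of the decidual list, Prl8a2, Erv3, Dcn and Cryab had the same highest library as Ptgds, Bmp2 had its lowest value there (5.38 CPM, against 13.3 CPM in WT replicate 2), and Prl3c1 was at 0. Prl8a2, a prolactin family hormone of the decidua, had 109.3 CPM in WT replicate 1, 2.04 CPM in WT replicate 2, 3.92 CPM in Qa-2- replicate 1 and 13.3 CPM in Qa-2- replicate 2, so that its highest and second-highest libraries were those of Ptgds. Erv3, from the same list, had 191.1 CPM in WT replicate 1 and between 2.93 and 5.73 CPM in the others. Dcn and Cryab differed less between the WT replicates, with 268.0 and 210.6 CPM for Cryab. Prl8a2 and Erv3 were singled out after their values were seen. Of the 6 mesothelial markers, Wt1, which is also expressed in uterine stroma, had its higher value in the other WT library (63.3 and 82.9 CPM in WT replicates 1 and 2). The other 5 markers were highest in WT replicate 1, as Ptgds was, among them Upk3b with 23.7 and 17.1 CPM and Msln with 31.2 and 30.7 CPM in WT replicates 1 and 2. Their part in the value of Ptgds was not tested.

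**Figure D3:**
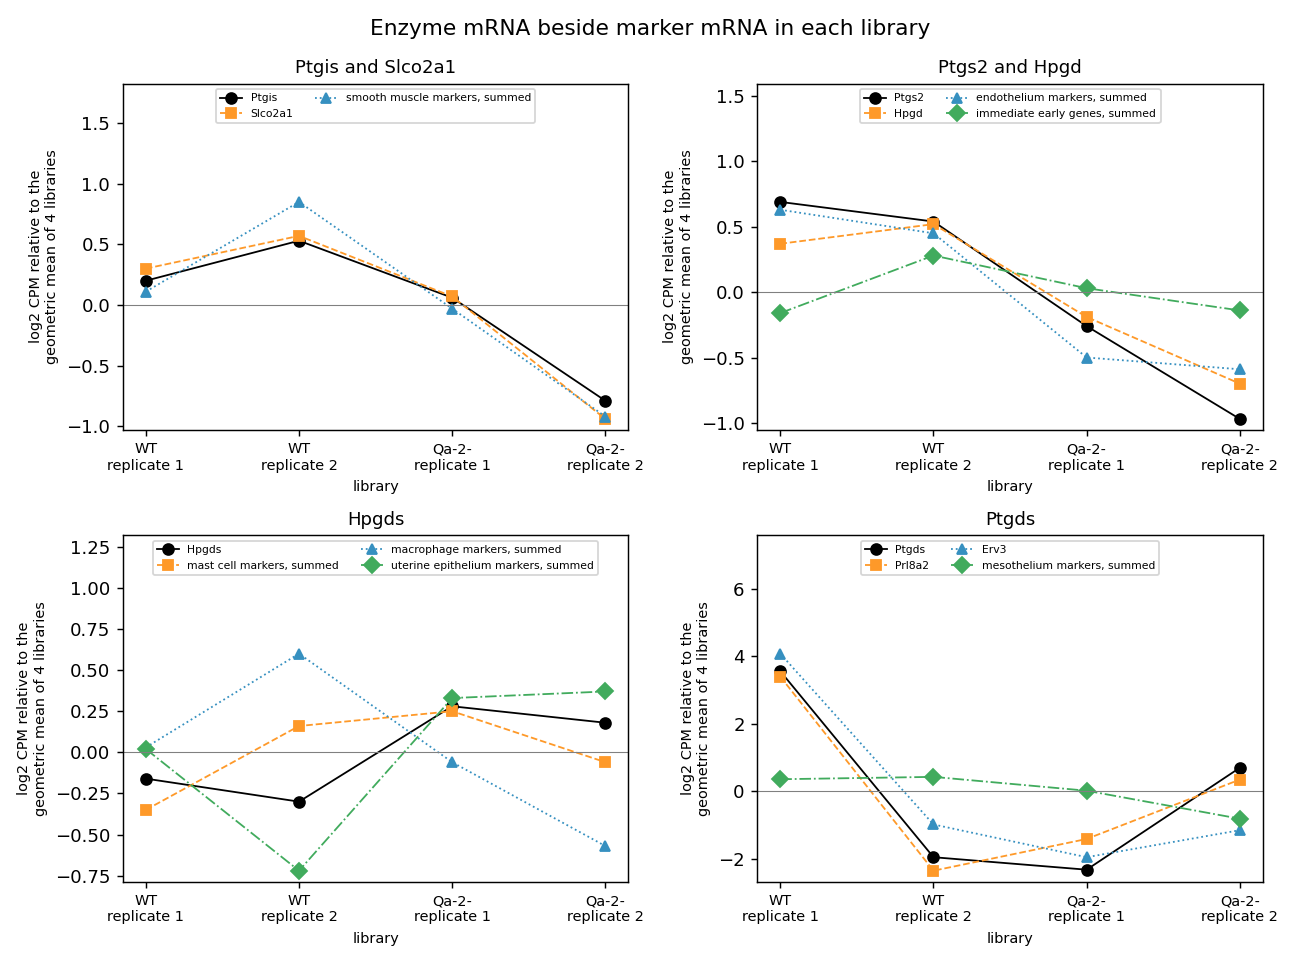
Log2 CPM of enzyme and marker mRNA in each of the 4 libraries, relative to the geometric mean of the 4, with lines joining the points of 1 gene or summed list (libraries have no order). Ptgds and Prl8a2 lie 3.56 and 3.40 above that mean in WT replicate 1. Ptgis, Slco2a1 and the summed smooth muscle markers lie at 0.53, 0.57 and 0.85 in WT replicate 2. In Qa-2- replicate 2 they lie at -0.79, -0.94 and -0.92. The summed macrophage and mesothelial markers, not drawn in that panel, put the libraries in the same order.

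Ptgis, the cytochrome P450 enzyme that forms prostacyclin, a vasodilator made by endothelium and smooth muscle (ENSMUSG00000017969, chromosome 2, 167191805 to 167240604), had 151.2 and 189.8 CPM in WT and 137.2 and 76.2 CPM in Qa-2- uteri. Both WT libraries were above both Qa-2- libraries, but WT replicate 1 and Qa-2- replicate 1 were close, and in TPM they crossed (160.9 and 170.5 TPM). The WT libraries averaged 170.5 ± 27.3 CPM and the Qa-2- libraries 106.7 ± 43.2 CPM (SD, n = 2 in each). The log2 fold change was 0.68 (SE 0.32, 95% interval -0.15 to 1.5, edgeR adjusted p = 0.388). Without Qa-2- replicate 2 it was 0.31, and without Qa-2- replicate 1 it was 1.16. The sums of the 8 smooth muscle, 6 macrophage and 6 mesothelial markers, given above, put the 4 libraries in the same order as Ptgis, as did Hpgd. Of the smooth muscle markers 5 of 8 were higher in both WT libraries, and of the endothelial markers 7 of 7, beside 25.4% of all genes. In TPM the smooth muscle markers Acta2, Actg2 and Cnn1 overlapped between the groups, as Ptgis did. None of these markers was at 0, and their part in the value of Ptgis was not tested.

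Akr1b3, the aldose reductase, which reduces glucose and can also form prostaglandin F (ENSMUSG00000001642, chromosome 6, 34302434 to 34317478), was the most even of the 10 genes. It had 77.7 and 72.7 CPM in WT and 67.7 and 70.5 CPM in Qa-2- uteri, so that its highest library was 1.15 times its lowest. The log2 fold change was 0.12 (SE 0.14, 95% interval -0.24 to 0.48). Its order depended on the scale, since WT was above on CPM with TMM scaling and below in TPM (25.3 and 25.5 against 25.8 and 25.7 TPM), and the groups overlapped on library totals alone.

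**Figure D4:**
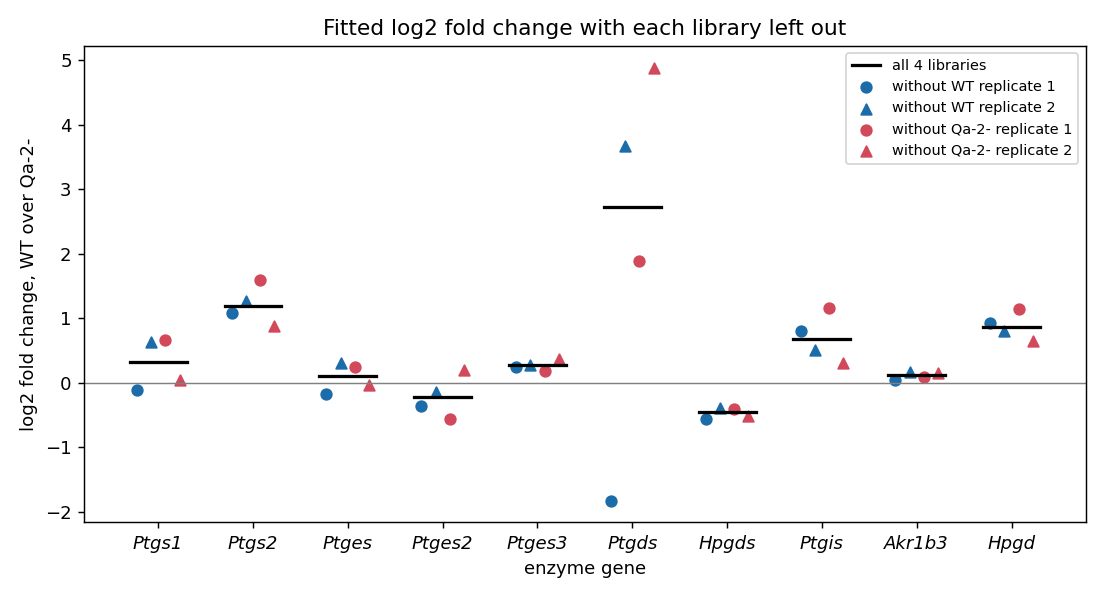
Fitted log2 fold change, WT relative to Qa-2-, for each enzyme gene from all 4 libraries (black line) and from the fits that omit 1 library (points; colour and shape give the library that was left out). Ptgs2, Ptgis, Ptges3, Hpgd and Akr1b3 keep a positive value and Hpgds a negative one in all 4 fits, whereas Ptgs1, Ptges, Ptges2 and Ptgds cross 0.

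Other genes of the pathway were taken from 4 lists by their role, 26 genes in all, of which 21 passed the filter. At an adjusted p under 0.05, edgeR called 0 of the 21 and DESeq2 called 0 of the 21. At an unadjusted p under 0.05 in edgeR there were 3 genes higher in WT (beside 8.09% of all genes) and 0 lower (beside 7.09%). Their median log2 fold change was -0.02. The groups did not overlap for 8 of the 21, with 7 above and 1 below in WT, beside 50.0% of all genes. This lean depended on the scale, with 6 above and 2 below on library totals alone, and 4 above (Fam213b, Slco2a1, Alox5ap and Ltc4s) and 3 below (Akr1c18, Abcc4 and Ptgr2) in TPM.

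Upstream, 5 of the 10 genes for release of arachidonic acid passed the filter, with log2 fold changes from -0.16 to -0.04, and all 5 overlapped between the groups. Their intervals were wide for some, from -1.59 to 1.34 for Pla2g5, a secreted phospholipase. Pla2g4a, the cytosolic phospholipase that supplies cyclooxygenases, had 47.3 and 32.4 CPM in WT and 34.3 and 54.5 CPM in Qa-2- uteri (log2 fold change -0.16, SE 0.30). Mgll, the monoacylglycerol lipase, was far more abundant per length, with a mean of 210.9 TPM against 19.6 TPM for Pla2g4a, and had a log2 fold change of -0.05. Of the 5 members below the filter, Pla2g2e, a secreted phospholipase, had 120 and 27 counts in WT replicates 1 and 2 and 6 and 11 counts in Qa-2- replicates 1 and 2. Pla2g2d, also secreted and below the filter, lay the other way, with 20 counts in each of 3 libraries and 54 counts in Qa-2- replicate 2.

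Further synthases and reductases included Akr1c18, which had the highest mean level per length of all pathway genes measured, 3455 TPM. This gene, whose enzyme inactivates progesterone near term, had 1641 and 909.0 CPM in WT and 1564 and 1483 CPM in Qa-2- uteri, with WT replicate 2 below the other 3 libraries. Its log2 fold change was -0.26 (SE 0.38). Akr1b7, an aldo-keto reductase with prostaglandin F synthase activity, had 466.4 and 171.5 CPM in WT and 490.1 and 245.4 CPM in Qa-2- uteri, with replicate 1 the higher in each group, as for Ptgs1. Fam213b, a prostamide and prostaglandin F synthase, had 11.2 and 11.3 CPM in WT and 7.32 and 6.60 CPM in Qa-2- uteri. Its log2 fold change was 0.69 (SE 0.21, unadjusted p = 0.0219 and adjusted p = 0.285 by edgeR). Tbxas1, the thromboxane synthase, had a log2 fold change of 0.32, and Cbr1, which can convert prostaglandin E to F, of -0.02.

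Hpgd acts inside the cell, behind the uptake carrier Slco2a1. Slco2a1 had 104.7 and 126.4 CPM in WT and 89.0 and 44.2 CPM in Qa-2- uteri, the same order of libraries as Ptgis (log2 fold change 0.79, SE 0.36, edgeR adjusted p = 0.366). Abcc4, which carries prostaglandins out of the cell, had 164.2 and 73.8 CPM in WT and 205.6 and 176.0 CPM in Qa-2- uteri, at a log2 fold change of -0.68 (SE 0.40, edgeR adjusted p = 0.457). On TMM-scaled CPM it was the 1 gene of the 21 with both WT libraries below both Qa-2- libraries. Of the reductases that follow Hpgd in breakdown, Ptgr1 had 43.7 and 55.7 CPM in WT and 38.1 and 23.3 CPM in Qa-2- uteri (log2 fold change 0.69, SE 0.28), and Ptgr2 had 44.0 and 34.7 CPM against 37.98 and 47.3 CPM (log2 fold change -0.12, SE 0.20).

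Arachidonic acid also feeds the lipoxygenases and leukotrienes. This arm held 7 measured genes with a median log2 fold change of 0.66, of which 4 were higher in both WT libraries and 0 lower on TMM-scaled CPM, beside 25.4% and 24.5% of all genes. On library totals alone 3 were higher and 1 lower, and in TPM 2 were higher (Alox5ap and Ltc4s) and 0 lower. Alox5ap, which presents arachidonic acid to the lipoxygenase Alox5, had 26.7 and 37.7 CPM in WT and 19.9 and 19.6 CPM in Qa-2- uteri (log2 fold change 0.71, SE 0.22, unadjusted p = 0.0210 and adjusted p = 0.281 by edgeR). Ltc4s, the leukotriene C synthase, had 10.9 and 13.0 CPM in WT and 7.07 and 3.94 CPM in Qa-2- uteri (log2 fold change 1.12, SE 0.35, edgeR adjusted p = 0.285). Lta4h, which leads to leukotriene B, lay between 72.6 and 76.2 CPM in every library (log2 fold change 0.05), and its groups changed places on library totals alone. Alox15 had 5.03 and 11.4 CPM in WT against 4.62 and 4.49 CPM, where WT replicate 2 stood apart from the other 3 libraries. Alox12 had the lowest value of the list, -0.05, and Alox5 and Ephx2 overlapped between the groups. The summed macrophage markers were higher in both WT libraries, as were Alox5ap and Ltc4s, although Csf1r and Mrc1 of that list overlapped between the groups. The smooth muscle, endothelial, mesothelial and decidual sums were higher in both WT libraries too. The part of these lists in the values of Alox5ap and Ltc4s was not tested.

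**Figure D5:**
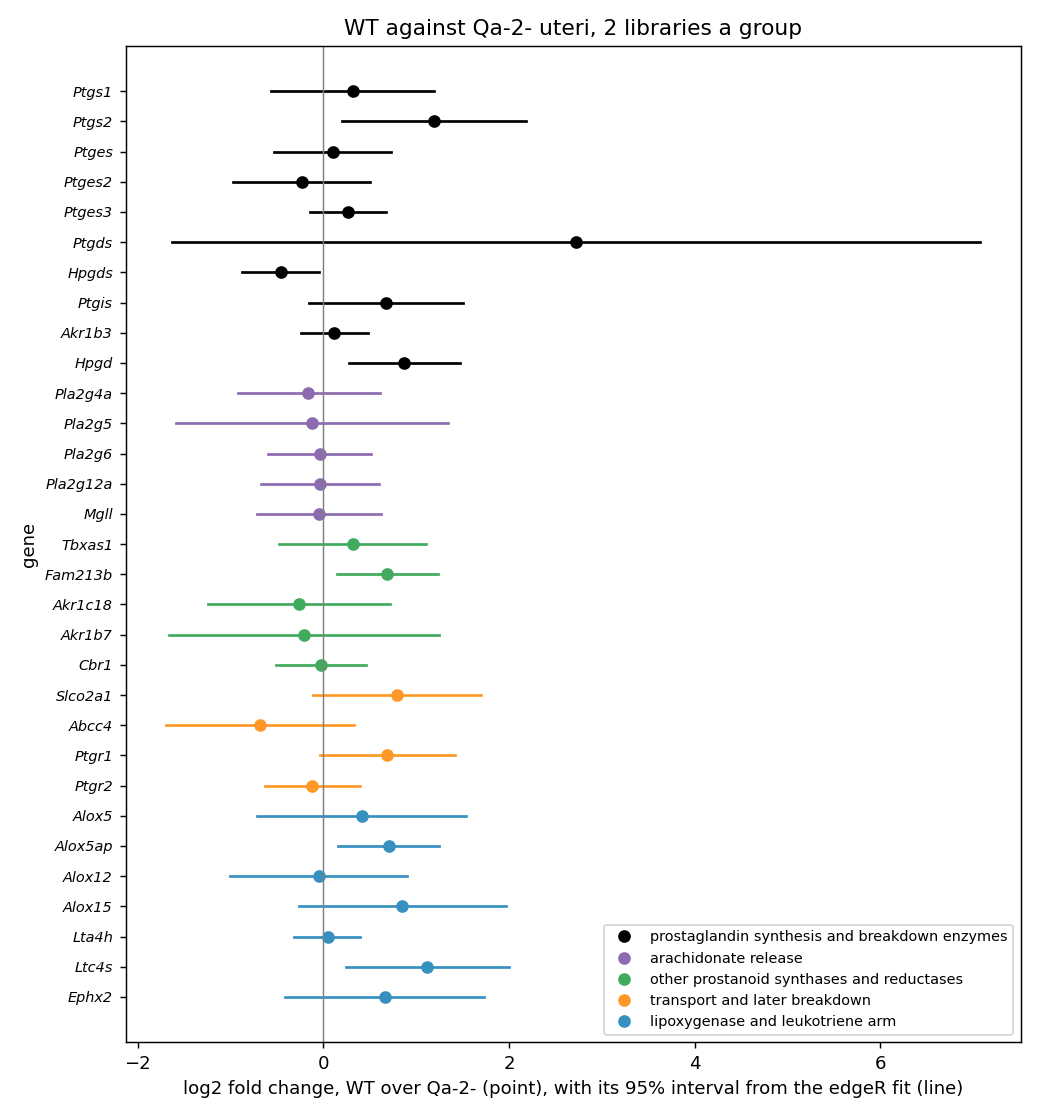
Log2 fold change, WT relative to Qa-2- (points), with the 95% interval of the edgeR fit (lines) for the 10 enzyme genes and the 21 other pathway genes that passed the filter, coloured by list. Intervals that leave out 0 without adjustment are those of Ptgs2, Hpgds, Hpgd, Fam213b, Alox5ap and Ltc4s, and the widest is that of Ptgds.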

How the data were processed

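RNA-seq libraries came from 2 WT and 2 Qa-2- pregnant uteri at E18.5. The authors deposited raw counts, 1 whole number of read pairs for each gene and library. The file headers give featureCounts 2.0.0 on GRCm38 exons, reverse strand, both ends mapped, mapping quality of at least 3, and pairs at several positions or genes not counted. The submitters' processing notes also list STAR 2.7.3a and GRCm38.p6. Symbols were taken from GENCODE M21, which held 55240 of the 55421 identifiers. Where 1 symbol had several identifiers, the one with the largest count was used.

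A gene entered the tests if 2 or more libraries had 1 CPM or more, a cutoff written after the study's methods, which state a larger number of genes kept than the 14492 kept here and name no test for the transcriptome. The reason for that gap is not known. Counts were compared with edgeR 4.0.16 (TMM, factors 0.957 to 1.05, glmQLFit and glmQLFTest) in R 4.3.3, and with DESeq2 1.42.0 as an alternative. The standard error is the log2 fold change divided by the square root of F. CPM are on TMM-scaled library sizes unless stated. A floor of 3 counts is 0.0731 to 0.0901 CPM, and intervals cover counting error only. Steps were tested on simulated data.

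The 10 members and all lists were chosen with earlier results of these data known. Every member is named, and of 4 pathway lists at least the genes with the largest value in each direction, with marker genes for their list. The WT and the Qa-2- libraries differed within a group by more than sampling noise (241 and 151 chi-square per gene). Replicate numbers come from the labels, and no pairing is described. Deviations of same-numbered libraries correlated at -0.37, so the numbers did not pair them. Alternatives were other scalings and filters, a robust fit, a replicate block, a crossed block (added after the data were seen), removal of haemoglobin and mitochondrial genes, a threshold of 0.1 and each library left out. In the fits with 1 library in a group, that library is assumed to vary like the other group.  Other assays of the study are not analysed here.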

Additional observations from a re-analysis of the deposited data

How the results depend on the processing

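None of the 10 enzyme genes or 21 pathway genes was called under any of the 14 alternatives run. The threshold of 0.1 was applied to the main edgeR fit only. Under 0.1 but above 0.05 were the DESeq2 adjusted p of Hpgd (0.0717) and Ltc4s (0.0798), and that of Hpgd in edgeR with the crossed block (0.0880). Over all genes, where edgeR with TMM called 0 (2199 at an unadjusted p under 0.05), DESeq2 called 700, no filter 61 and the replicate block 2 genes, and leaving out 1 library gave 0 to 93. The cause was not tested. The replicate block changed no other call, and gave log2 fold changes of 1.23 for Ptgs2, 0.89 for Hpgd and -0.46 for Hpgds. The crossed block, added after the data were seen, called 0 genes. With 1 library left out, the median over the 10 genes ran from -0.04 to 0.45, Ptgs1 from -0.11 to 0.66, Ptges from -0.17 (and -0.03 in a further fit) to 0.30, Ptges2 from -0.57 to 0.20, Ptgds from -1.83 to 4.89 and the log2 ratio of Ptgds to Hpgds from -0.61 to 4.75. Ptgs2, Ptges3, Ptgis, Hpgds, Hpgd and Akr1b3 kept their direction in the 13 alternatives run for each. For Ptgs2, Hpgd and Hpgds the adjusted p ran from 0.15 to 0.818, 0.0717 to 0.818 and 0.139 to 0.818. The ratios with Ptgs1 or Hpgd also kept their direction. Ptgds had no value with at least 10 counts in every sample. At 41 to 149 counts, Ptgs2 is limited by counting error most after Ptgds among the 10 enzymes.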
